A study of Bos taurus with 94 samples.

Results

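The 100 genes described here were the genes most clearly shared by the bull testis and the upper oviduct, out of 24616 genes measured by RNA sequencing in 94 cattle libraries. They were chosen from the measured levels. For each gene, L was log2(FPKM + 1), where FPKM is the number of fragments normalised to transcript length and to the library's mapped fragments. The score was the lowest L among the bull testis, the ampulla libraries and the infundibulum libraries (5 libraries) minus the 90th percentile of L in the other 89 libraries, and the 100 highest scores were taken. The ampulla and the infundibulum are the middle stretch of the oviduct and its open end beside the ovary.

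Such a pattern is of interest because of the motile cilium. The lining of the oviduct holds multiciliated cells, whose beating cilia move fluid and the egg, and the tail of the sperm is built on the same kind of moving microtubule core, the axoneme. Multiciliated cells are also known from the nasal and tracheal lining, the bronchi, the glands of the endometrium (the lining of the uterus) and the walls of the brain ventricles, and they switch on a shared set of structural genes. Many axoneme genes are therefore read in both spermatids and ciliated epithelia.

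All libraries came from Hereford cattle and carry the age label adult, the fetal testis included. The groups used were the bull testis (1 library), the infundibulum (2), the ampulla (2), the endometrium (3), the respiratory tissues (nasal mucosa, trachea and left lung, 3), the brain (8 regions), the isthmus or lower oviduct (2) and single libraries of the fetal testis and other tissues. The infundibulum, the ampulla, the isthmus and the intercaruncular endometrium each had 1 library labelled ipsilateral and 1 labelled contralateral. The labels name no animal and no treatment, so p-values measure the spread between libraries, which within the respiratory and brain groups are different tissues. In the endometrium, respiratory and brain comparisons the 86 or 81 reference libraries also come from many tissues. They supply most of the spread, so those p-values mostly reflect differences between tissues and not between replicates. Read depth is unknown. The files and the gene table used here pair none of the 24616 identifiers with a symbol, so the list of ciliated-cell markers could not be looked up, the ciliary identity of the 100 genes was not checked, and genes are given by identifier.

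The nearest library of several tissues was a different tissue over the 18031 tested genes, those that reached 1 FPKM in 3 or more libraries. The library labelled trachea was closest to the aorta (Spearman's rho 0.976) the nasal mucosa to the fornix of the vagina (0.883) and the lung to the ureter (0.884). The library labelled choroid plexus was closest to the triceps muscle (0.840), and the ipsilateral isthmus to the cervical lining (0.884). The endometrial libraries were closest to each other (0.983 to 0.989). FPKM totals ran from 585122 to 1062591, the highest of them in the nasal mucosa, and genes at an FPKM of 1 or more from 7353 in the choroid plexus to 14198 in the bull testis. Genes are not independent replicates, so these correlations carry no test.

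The scores ran from 1.79 to 3.99 with a median of 2.46. The highest belonged to ENSBTAG00000017823, with 40.5 FPKM in the bull testis, 153 and 71.3 in the ipsilateral and contralateral infundibulum and 38.3 and 29.7 in the ampulla. It was listed at 0 in 60 of the other 89 libraries and reached 11.5 FPKM in the contralateral isthmus, the highest of them. At the threshold the scores were close together. The gene at place 100 (ENSBTAG00000000654) and the next gene outside (ENSBTAG00000023064) both scored 1.79, with lowest levels of 6.37 and 4.94 FPKM among the 5 libraries. These values chose the genes and are given as a description.

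In the 5 libraries that chose them, the 100 genes made up 1.06% of all FPKM in the bull testis, 1.76% and 0.848% in the ipsilateral and contralateral infundibulum, and 0.555% and 0.426% in the ampulla. Their median level was 43.2 FPKM in the bull testis. It was 87.2 and 44.5 FPKM in the infundibulum and 23.3 and 18.9 FPKM in the ampulla. The contralateral ampulla was the lowest of the 5 libraries for 68 genes, and the bull testis for 26. The ipsilateral infundibulum was the highest for 72 genes, and the bull testis for 25.

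**Figure D1:**
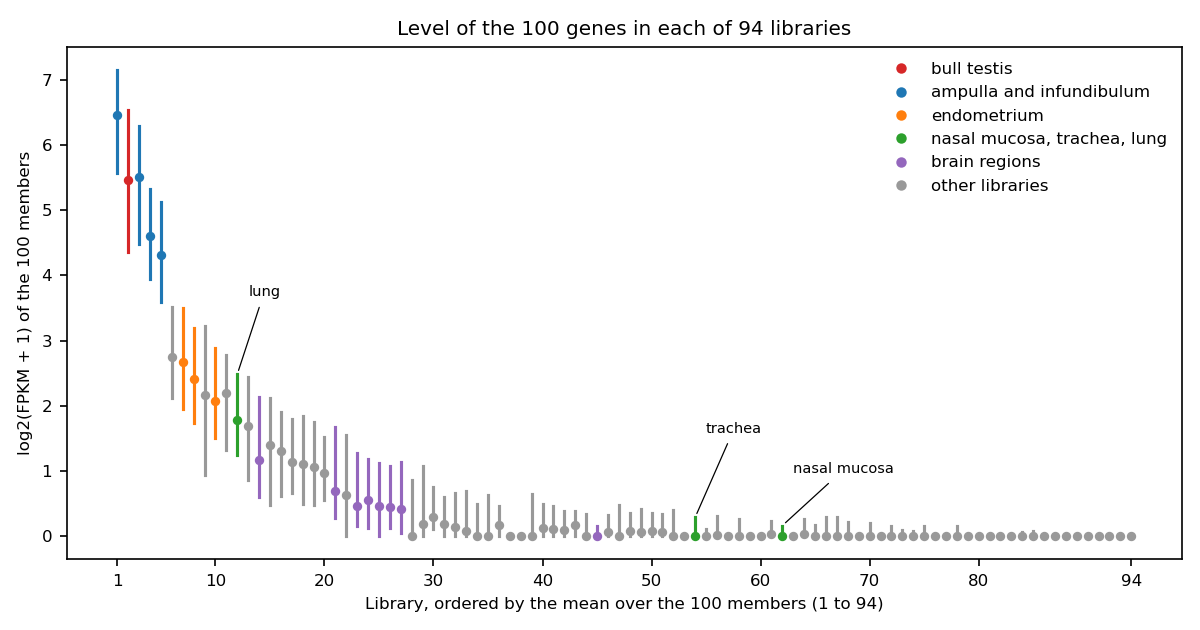
Level of the 100 genes in each of the 94 libraries; a point is the median of log2(FPKM + 1) over the genes and a line the quartile range, with libraries ordered by the mean over the genes. After the 5 libraries that chose the genes come the isthmus, the endometrium, the cervix and the lung, while the trachea (place 54) and the nasal mucosa (place 62) lie among libraries with a median of 0 or close to it.

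Outside these 5 libraries the highest levels were in the lower female tract. The median of the genes was 5.73 FPKM in the contralateral isthmus and 3.46 in the ipsilateral isthmus. It was 5.40, 4.33 and 3.22 FPKM in the ipsilateral intercaruncular, contralateral intercaruncular and caruncular endometrium. It was 3.56 FPKM in the cervical lining, 0.957 in the fornix of the vagina and 0 in the myometrium, the muscle wall of the uterus. At an FPKM of 1 or more were 96 and 74 genes in the contralateral and ipsilateral isthmus, 95, 94 and 92 in the endometrium, 85 in the cervical lining, 49 in the vagina and 11 in the myometrium. Of all tested genes, 73.0% and 60.4% did so in the contralateral and ipsilateral isthmus, 74.7% to 76.9% in the endometrium, 69.3% in the cervical lining and 72.1% in the vagina. In bulk tissue, fewer cells of a type and less RNA per cell cannot be told apart.

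Among the libraries outside the 5, the endometrium held the genes at a level above most tissues. It was compared with 86 other libraries, leaving out the 5 that chose the genes. limma (moderated linear model, two-sided, Benjamini-Hochberg adjustment over all 18031 genes) called 84 of the 100 genes higher and 0 lower, a call needing both an adjusted p below 0.05 and a 2-fold difference (1 on the log2 scale). Over all genes 6.05% were called higher and 0.0111% lower. The median log2 difference of the 100 genes was 1.93, against 0.42 over all genes, and 99 were above 0, against 71.5% of all genes. With quantile normalization, which moved the all-gene median to -0.08, 54 were called higher and 0 lower, against 2.55% and 0.0887% of all genes. The score used the 86 libraries too, through the 90th percentile, so that the genes were low in most of them by choice. The excess over the share of all genes was therefore partly built in and is given as a description. The p-values of the single genes below carry the same limit.

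ENSBTAG00000034338 had the largest endometrial difference. It stood at 38.1, 31.4 and 22.3 FPKM in the ipsilateral intercaruncular, contralateral intercaruncular and caruncular endometrium. Over the 86 other libraries it ran from 0 to 50.6 FPKM with a median of 0, and 85 of them lay below every endometrial library. The exception was the ipsilateral isthmus. The log2 difference was 4.41 ± 0.64 (SE; limma adjusted p = 1.17e-07). ENSBTAG00000006947 stood at 19.1, 16.5 and 11.5 FPKM in the same 3 libraries, and the 86 others ran from 0 to 17.7 FPKM with a median of 0. Of these, 84 were below every endometrial library, and the caput epididymis and the ipsilateral isthmus were not (log2 difference 3.55 ± 0.59 SE, limma adjusted p = 3.94e-06).

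**Figure D2:**
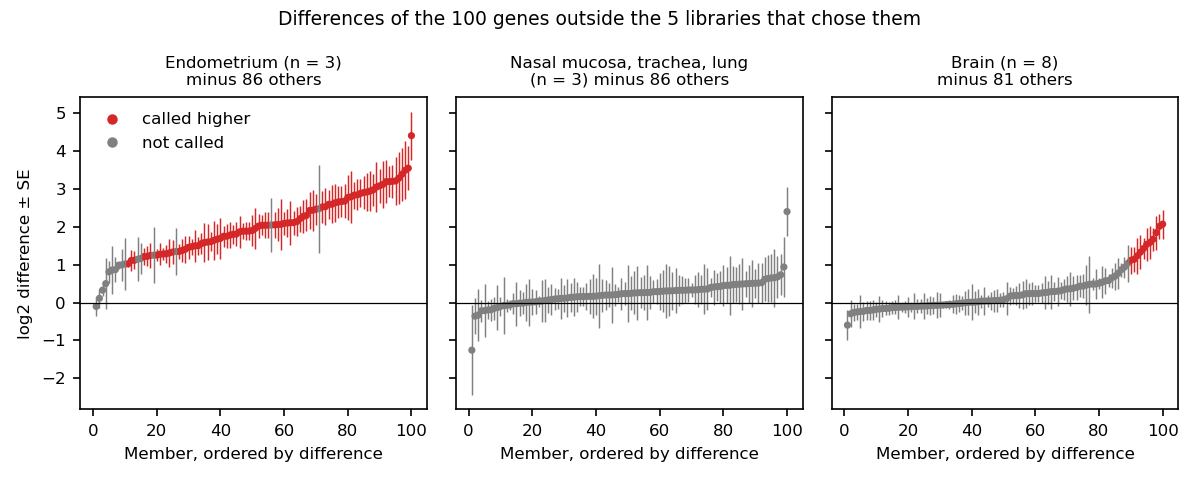
log2 difference ± SE of each of the 100 genes between the endometrium, the respiratory libraries or the brain and the other libraries, with the 5 libraries that chose the genes left out; red genes were called higher by limma. Called genes number 84 in the endometrium, 0 in the respiratory group and 11 in the brain. Of all genes, 6.05%, 0.0388% and 13.3% were called higher, in the same order.

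The respiratory libraries did not form a group for these genes. In the lung 80 of the 100 genes reached 1 FPKM, in the trachea 8 and in the nasal mucosa 6, against 74.5%, 65% and 63.5% of all tested genes. Their median was 2.44 FPKM in the lung and 0 in the trachea and the nasal mucosa, where 54 and 72 genes were listed at 0. The lung was above both of the other libraries for 90 genes, against 45.5% of all tested genes. No gene reached an FPKM of 1 in the trachea and the nasal mucosa together (0 of 100, against 55.6%), and 45 were listed at 0 in both (10.5% of all). The trachea and nasal mucosa are lined by ciliated epithelium in life, but the trachea library was closest to the aorta, and which layer of either tissue was sampled is not stated. Whether this bears on the low values was not tested.

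With the 3 respiratory libraries set against 86 others, limma called 0 of the 100 genes, and 0.0388% of all genes higher and 0% lower. At an unadjusted p under 0.05, 1 gene was higher and 0 were lower, and a model of group means also called 0. The genes were low in most of the 86 libraries by choice, which left little room for lower values. The median log2 difference was 0.24, against -0.01 over all genes, and it was -0.30 without the lung. Without the nasal mucosa or without the trachea 1 gene was called. It was ENSBTAG00000014464, named here because its value was seen, with 311 FPKM in the lung and 0 in both other libraries, and 17.3 FPKM in the bull testis.

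The genes were present in the brain at a low level that differed by region. The hippocampus had 58 of the 100 genes at 1 FPKM or above with a median of 1.25 FPKM, and the pons 39 with a median of 0.612. The midbrain, diencephalon, cerebral, temporal and frontal cortex had 33, 31, 28, 28 and 27 genes, with medians from 0.326 to 0.469 FPKM. The thalamus had 14 genes, and 73 were listed at 0 there. Shares of all tested genes at that level are not given here for single brain regions. The same holds for the myometrium, the single pituitary and pineal libraries, the body and tail of the epididymis and the fetal testis. A difference between such libraries in these counts cannot be told apart from one in all genes. Over the 8 regions, 8 genes reached an FPKM of 1 in all of them and 35 in none, against 51.8% and 17.1% of all tested genes. All 3 endometrial libraries lay above every brain region for 82 of the 100 genes, against 30.9% of all tested genes.

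In the brain against 81 other libraries, limma called 11 of the 100 genes higher and 0 lower, against 13.3% and 6.05% of all genes. The share called higher was therefore near that of all genes, and the median log2 difference was 0.09, against -0.06 over all genes. The score chose genes that were low in most of these 81 libraries. Most of the 100 thus had no room for a fall of 1 on the log2 scale, and nothing is read from the 0 lower. With a pseudocount of 0.1 in place of 1, 19 genes were called higher, against 16% of all genes. ENSBTAG00000001806 had the largest difference. It stood at 50.1 FPKM in the pons, 24.8 in the thalamus, 13.1 in the midbrain and 5.93 to 9.77 in the other regions, while the other 81 libraries ran from 0 to 19 FPKM with a median of 2.10. The regions overlapped with the highest of these libraries (log2 difference 2.07 ± 0.38 SE, limma adjusted p = 7.2e-06). ENSBTAG00000036113 ran from 2.11 FPKM in the temporal cortex to 10.1 in the pons with a median of 5.40, and the other 81 libraries from 0 to 12.9 FPKM with a median of 0 (log2 difference 2.01 ± 0.33 SE, limma adjusted p = 5.04e-07). It was above the lowest brain region in 11 of these 81 libraries. Among them were follicle replicate 1 (12.9 FPKM) and the body of the epididymis (11.4 FPKM), each the nearest library of the other over all tested genes. All 11 called genes were at an FPKM of 1 or more in the lung, and 2 in the nasal mucosa.

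In the pituitary and the pineal gland the medians were 1.62 FPKM in the pineal gland, 1.46 in the posterior and 1.14 in the anterior pituitary and 1.08 in the pituitary stalk, with 57, 66, 54 and 53 genes at an FPKM of 1 or more. In all 4 of these libraries 36 genes reached that level and in none 28, against 67.7% and 17.8% of all tested genes. Skeletal muscle was at the other end, with 86 genes under an FPKM of 1 in all 11 libraries, against 23.8% of all tested genes. The score used these libraries, so low values there were partly by choice. The 11 include the diaphragm, which was closest to the gall bladder over all genes. The library labelled choroid plexus, a ciliated tissue in life, had no gene at 1 FPKM (0 of 100) and 99 listed at 0, and over all genes it was closest to muscle, as stated above.

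**Figure D3:**
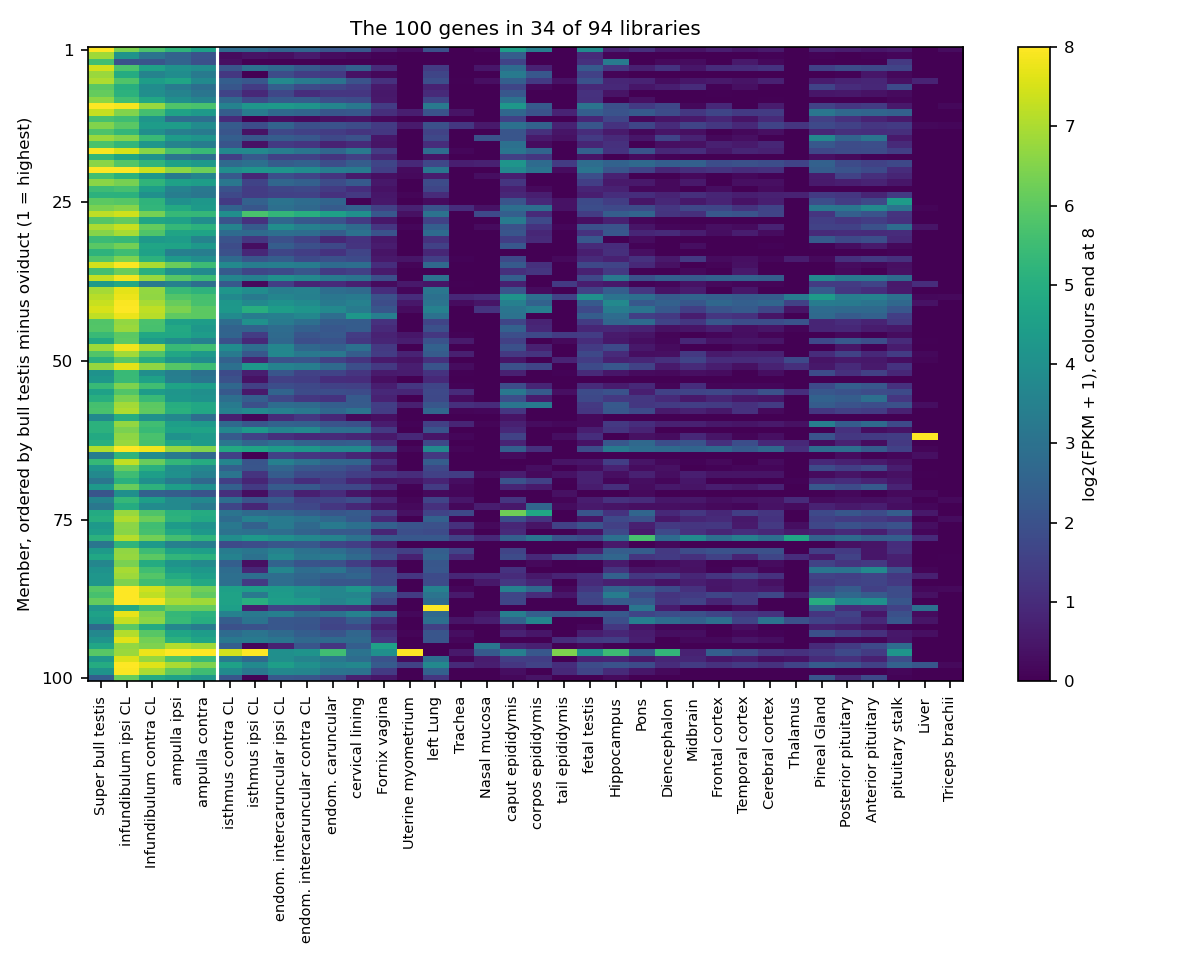
The 100 genes (rows, ordered by bull testis minus oviduct) in libraries of the reproductive tract, airway, brain, pituitary, liver and muscle (columns), coloured by log2(FPKM + 1); the white line separates the 5 libraries that chose the genes. Most genes are lower in the isthmus, endometrium, cervix and lung columns than in the 5 to the left of the line, and the caput epididymis column is brightest among the upper rows.

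The genes were also compared by their proportions to each other. As a share of the contralateral infundibulum, the level of the genes had a median of 13.3% in the contralateral and 7.996% in the ipsilateral isthmus, 12.7%, 10.4% and 7.62% in the ipsilateral intercaruncular, contralateral intercaruncular and caruncular endometrium, 7.46% in the cervical lining and 5.95% in the lung. Within 2-fold of that median were 88 genes in the contralateral and 64 in the ipsilateral isthmus, 83, 88 and 82 in the endometrium, 85 in the cervical lining and 81 in the lung. Of 10742 tested genes with at least 3 FPKM in the contralateral infundibulum, 79.5% in the contralateral and 46.6% in the ipsilateral isthmus, 73.4% to 75.8% in the endometrium, 75.8% in the cervical lining and 62.8% in the lung lay within 2-fold of their own median share. In the caput epididymis the median was 4.46% and 39 genes lay within 2-fold of it, against 50.2% of the wider set. In the bull testis the median was 106% with 43 genes within 2-fold, against 43.7%. Over these libraries the median share of the wider set ran from 66.1% (ipsilateral isthmus) to 105.9% (ipsilateral intercaruncular endometrium). The contralateral infundibulum was 1 of the 5 libraries that chose the genes, and the score favoured genes low in the other 89. Low shares were thus partly by choice, and nothing is read from the distance to the wider set.

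The order of the genes within a library was compared as well. Over the 100 genes, Spearman's rho with the mean of the 4 oviduct libraries was 0.89 in the contralateral isthmus, 0.81 to 0.87 in the endometrium, 0.87 in the cervical lining, 0.79 in the lung, 0.70 in the pons and 0.66 in the hippocampus. With the bull testis the same libraries gave 0.30 to 0.42. The caput epididymis had 0.36 with the oviduct and 0.73 with the bull testis, and the fetal testis 0.43 and 0.67. Over all tested genes rho with the oviduct was higher in each of these libraries, with 0.94 in the contralateral isthmus, 0.90 to 0.91 in the endometrium, 0.91 in the cervical lining, 0.84 in the lung, 0.75 in the pons, 0.73 in the hippocampus, 0.79 in the caput and 0.82 in the fetal testis. With the bull testis it was 0.74 in the caput, 0.73 in the fetal testis and 0.56 in the lung. These are descriptions over 100 genes that share a library and a length scaling.

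The caput epididymis, the first stretch of the duct that receives sperm from the testis, had 69 of the genes at an FPKM of 1 or more (71% of all tested genes) with a median of 2.21 FPKM. The body of the epididymis had 37 with a median of 0.551, and the tail 11. With the vas deferens added, 4 genes reached that level in all 4 libraries and 26 in none, against 54.2% and 16.0% of all tested genes. The 25 genes for which the bull testis was above all 4 oviduct libraries had a median of 4.16 FPKM in the caput, and the 26 for which it was below had 1.36. In the lung the same 2 sets had medians of 1.99 and 3.45 FPKM.

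Bull testis and oviduct were then compared for each gene. The bull testis lay above all 4 oviduct libraries for 25 genes and below all 4 for 26, against 38.3% and 38.9% of all tested genes, and between them for 49. limma called 4 of the 100 genes higher and 1 lower in the bull testis, against 20% and 15.6% of all genes, with the lone testis library assumed to vary like the oviduct libraries. These are the 5 libraries whose lowest value chose the genes, so the counts are a description and nothing is read from their distance to the share of all genes. The number of genes called depended on which oviduct library was left out, and rose only without the ipsilateral infundibulum. The shares of all genes called in those fits are not given here. A model of group means gave 21 higher and 10 lower (31 in all), against 14.8% and 8.3% of all genes.

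ENSBTAG00000018771 had the highest level of all 100 genes in the testis, with 826 FPKM in the bull testis against 85.5 and 52.9 in the infundibulum and 35.9 and 22.4 in the ampulla. The testis was far above every oviduct library, with a log2 difference of 4.21 from their mean. Outside the 5 libraries this gene was highest in the caput epididymis (21.2 FPKM) and the fetal testis (13.7). ENSBTAG00000001331 had 115 FPKM in the bull testis against 16.1 and 7.35 in the infundibulum and 4.80 and 3.08 in the ampulla, a log2 difference of 3.93. It was at an FPKM of 1 or more in 1 of the other 89 libraries, the caput epididymis (4.16 FPKM). Without the ipsilateral ampulla or the contralateral infundibulum neither of these genes was called, and the second was also lost without the contralateral ampulla.

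ENSBTAG00000037693 was the gene called lower, with 25.5 FPKM in the bull testis against 104 and 86.8 in the infundibulum and 135 and 115 in the ampulla. The testis was below every oviduct library, with a log2 difference of -2.05. The gene was listed at 0 in all 8 brain regions and in the lung, reached 23.1 FPKM in the fornix of the vagina and 17.8 in the normal outer eye layer, and was the highest of the 100 genes in the nasal mucosa (7.55 FPKM).

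**Figure D4:**
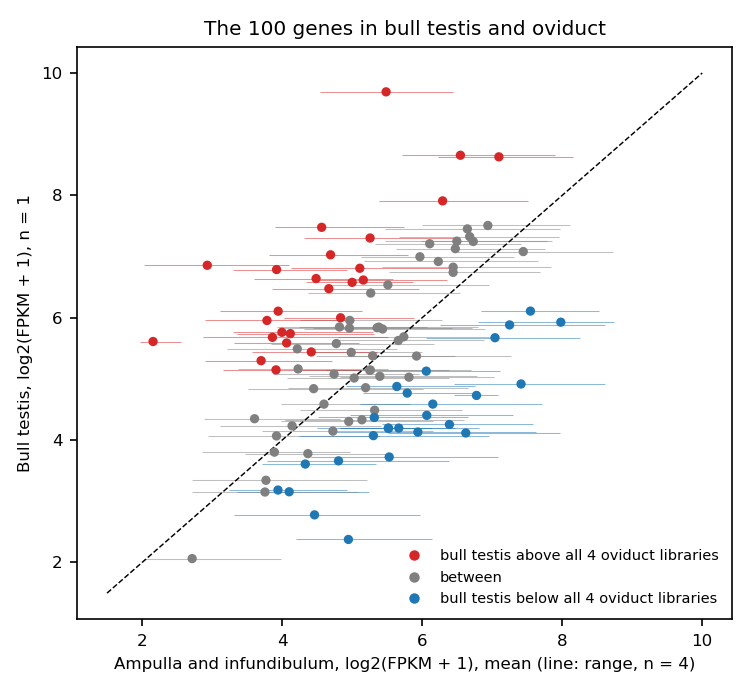
Each of the 100 genes in the bull testis (1 library) against the mean of the 4 ampulla and infundibulum libraries, both as log2(FPKM + 1), with lines for the range of the 4 and a dashed line of equality. The 25 red genes are above and the 26 blue genes below all 4 oviduct libraries in the bull testis.

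In the fetal testis, which holds no sperm, the median of the genes was 1.19 FPKM and 56 reached an FPKM of 1, against a median of 43.2 FPKM in the bull testis, where all 100 did. The bull testis was at least 2 higher on the log2 scale for 99 genes, against 11.1% of all tested genes, and the difference ran from 1.90 to 5.89 with a median of 4.42. The bull testis chose the genes and the fetal testis was among the 89 other libraries, so this is a description, with 1 library each.

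Within the upper oviduct, the infundibulum held the genes at a higher level than the ampulla. Both infundibulum libraries were above both ampulla libraries for 91 of the 100 genes and below both for 3, against 30.5% and 22.4% of all tested genes. The median log2 difference was 1.48 over the 100 genes and 0.01 over all genes. These libraries are 4 of the 5 whose lowest value chose the genes, so the counts are given as a description. limma called 0 of the 100 genes, and 0% of all genes in either direction, with adjusted p from 0.234 to 0.728. At an unadjusted p under 0.05, 58 of the 100 were higher and 1 was lower, and over all genes 3544 of 18031 passed. A model of group means takes the spread from the libraries within all groups, some of which hold different tissues and not replicates. It called 33 higher and 0 lower, against 0.743% and 0.139% of all genes. These counts too come from libraries that chose the genes, so nothing is read from their distance to the share of all genes.

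ENSBTAG00000001388 ran the other way, with 110 and 218 FPKM in the infundibulum against 426 and 388 in the ampulla. Both infundibulum libraries were below both ampulla libraries, with a log2 difference of -1.38. This gene also reached 1441 FPKM in the myometrium, 882 in the ipsilateral isthmus and 174 in the contralateral isthmus, above the 59.9 FPKM of the bull testis. It was among 12 genes with a library outside the 5 above the lowest of the 5. Among these 12, ENSBTAG00000007148 had 1380 FPKM in the liver, against 28 FPKM in the bull testis and 16 to 99.7 FPKM in the oviduct libraries. ENSBTAG00000003321 had 76.3 FPKM in the caput epididymis, above the bull testis (28.4 FPKM) and 3 of the 4 oviduct libraries. These 3 genes were singled out after their values were seen.

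The sides of the tract differed in the same direction in 3 of 4 segments. In the infundibulum the median was 87.2 FPKM ipsilateral and 44.5 contralateral, and 97 of the 100 genes were higher on the ipsilateral side, against 56.2% of all tested genes. A log2 difference of 1 or more was reached by 56 genes, against 4.2% of all, and one of -1 or less by 0, against 1.77%. In the ampulla 94 genes were higher on the ipsilateral side, against 60.2%, with a median log2 difference of 0.33, 0 genes at 1 or more (0.815% of all) and 0 at -1 or less (0.971%). In the intercaruncular endometrium 83 were higher, against 61.6%, with a median difference of 0.25, 1 gene at 1 or more (1.04% of all) and 1 at -1 or less (0.893%). In the isthmus 25 were higher, against 33.4%, and the median difference was -0.56, with 5 genes at 1 or more (10.7% of all) and 30 at -1 or less (26.1%), and the nearest library to the ipsilateral isthmus over all genes was the cervical lining. The all-gene median difference in the isthmus was -0.22. With quantile normalization the isthmus turned, with 62 genes higher and a median difference of 0.17. Each side had 1 library, so the differences have no replicate check. The infundibulum and ampulla libraries are 4 of the 5 whose lowest value chose the genes, and the isthmus and endometrium are among the other 89. The counts are therefore a description, and nothing is read from their distance to the share of all genes.

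**Figure D5:**
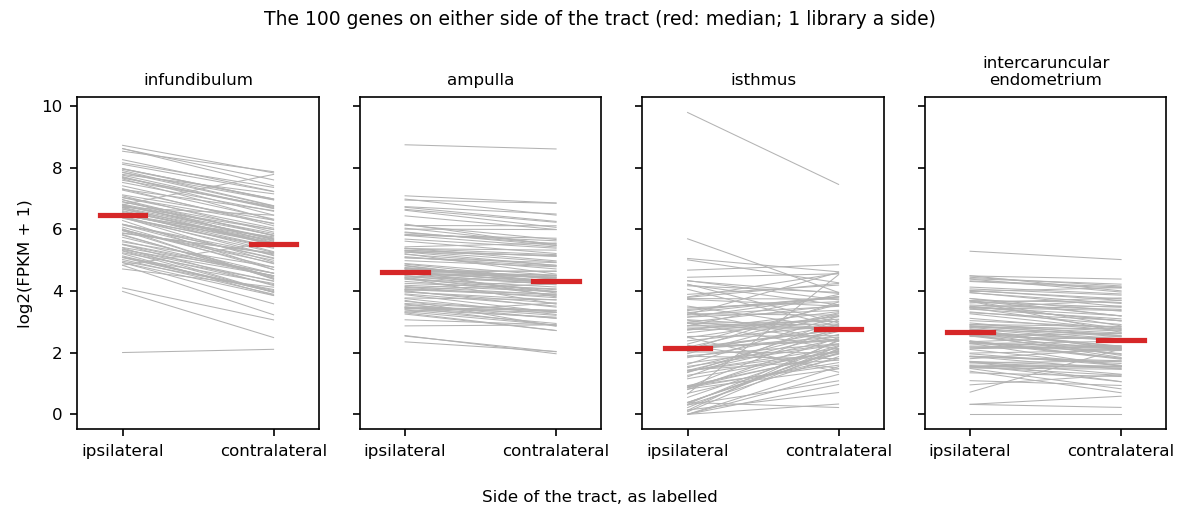
The 100 genes in the ipsilateral and contralateral library of 4 segments as log2(FPKM + 1); each grey line is a gene and the red bars are medians. Lines fall from left to right for 97 genes in the infundibulum and for 25 in the isthmus.

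The 100 genes differed in breadth. Over the 89 libraries that did not enter the minimum, a gene reached an FPKM of 1 in 1 to 62 of them, with a median of 14. Fewer than 10 libraries were reached by 24 genes, 10 to 19 by 45, 20 to 39 by 21 and 40 or more by 10. The broadest was ENSBTAG00000001806, the gene with the largest brain difference. The narrowest were ENSBTAG00000001331, described above, and ENSBTAG00000030325, which passed an FPKM of 1 in the contralateral intercaruncular endometrium only (1.43 FPKM). The library with the highest level outside the 5 was the contralateral isthmus for 28 genes, the ipsilateral intercaruncular endometrium for 17, the ipsilateral isthmus for 15 and the caput epididymis for 11. It was the lung for 1 gene, the hippocampus for 1 and the pons for 1.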

How the data were processed

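The 94 libraries were RNA sequencing libraries of Hereford cattle tissues. The deposited values are FPKM, per the file name and labels, and the submitters' processing notes name HISAT2, StringTie and the build UMD3.1, with no version or annotation release. FPKM keeps no read depth, an exact 0 can be a failed estimate, and a few very abundant transcripts depress the other values.

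The members and lists were chosen with earlier results of these data known. The scale was log2(FPKM + 1), on which changes of low genes come out too small. Tested were the 18031 genes that reached 1 FPKM in 3 or more libraries; all 100 members passed, 2 of them with fewer than 3 libraries outside the 5 at that level. Differences came from limma 3.58.1 under R 4.3.3 (eBayes with trend, two-sided tests, Benjamini-Hochberg adjustment over all genes tested); the step was tested on simulated data. Python 3.11.15, numpy 2.4.6, scipy 1.17.1 and pandas 2.3.3 were used elsewhere. Named members are the called genes with the largest differences, at most 2 in each direction, since 0 of the 24616 identifiers matched a symbol in the table for ARS-UCD2.0; the gene lists were therefore not used. Alternatives were a pseudocount of 0.1, no filter, equal FPKM totals, quantile normalization, a model of group means, members chosen by the 95th percentile, the side as a block and left-out libraries.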

Additional observations from a re-analysis of the deposited data

Results flagged for a closer look

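The ileum stood apart from the other 5 intestinal libraries. Its mean over the 100 genes was 0.48 on the log2(FPKM + 1) scale, against 0.10 to 0.21 in the others, and 11 genes reached an FPKM of 1 there, against 4 to 7. The ileum was the highest of the 6 libraries for 58 of the 100 genes, against 21.2% of all tested genes. Of 6 groups examined in this way 1 gave such a library, and with 6 groups examined 1 can arise by chance. The 6 intestinal libraries are different segments of the gut, not replicates.

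The isthmus differed from the other segments in the sign of its side difference. Its median ipsilateral minus contralateral difference was -0.56, while the infundibulum had 1.04, the ampulla 0.33 and the intercaruncular endometrium 0.25. Over all tested genes the isthmus had a median of -0.22. With quantile normalization the sign turned, with a median of 0.17 over the 100 genes and 62 of them higher on the ipsilateral side. The difference between segments was not tested, and each side has 1 library. The infundibulum and ampulla libraries were among those that chose the genes.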

How the results depend on the processing

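Of the 100 genes, 83 were also chosen with the 95th percentile, 68 with the maximum of the other libraries, 78 with a pseudocount of 0.1, 96 with equal totals, 87 with quantile normalization and 65 without the bull testis in the minimum. Leaving out 1 oviduct library kept 92 to 100 of them. The count called higher in the endometrium was 54 with quantile normalization (2.55% of all genes) and 66 to 75 with 1 endometrial library left out. In the brain it was 19 with a pseudocount of 0.1 (16% of all genes). The respiratory count ran from 0 to 1 with 1 library left out. Between infundibulum and ampulla a model of group means called 33, and the count stayed at 0 with 1 library left out and with the side of the tract as a replicate block; the labels do not say whether libraries of 1 side share an animal. Between bull testis and oviduct it called 31, and leaving out 1 oviduct library gave 2 to 17. The mean level of the genes, on the log2(FPKM + 1) scale, was 0.22 in the nasal mucosa (0.18 with the 95th percentile, 0.17 with equal totals and 0.29 with quantile normalization). It was 0.25 in the trachea (0.25, 0.27 and 0.31 in the same order) and 1.85 in the lung (1.75, 1.997 and 1.34). In the endometrium it was 2.46, and 1.79 with quantile normalization. The cause of these shifts was not tested. None of the results run changed direction in a called value. Without the libraries labelled choroid plexus, diaphragm, corpus luteum and ipsilateral isthmus, the counts were 84 in the endometrium, 0 in the respiratory group and 11 in the brain. The shares of all genes called with libraries left out are not given here, so nothing is read from the counts of those fits. Read depth is unknown, so counting error could not be given.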
